A study of Mus musculus with 24 samples.

Results

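The 6 genes described here encode enzymes by which the liver makes, releases, burns or stores glucose: *Pck1*, *G6pc*, *Fbp1*, *Pcx*, *Pklr* and *Gys2*. They were found by the accession of each probe, and 7 of the 55681 probes of the array, for 6 of 21368 named genes, belong to them. *Gys2* has 2 probes and each of the other genes has 1. RNA was taken from 4 tissues (liver, brain, heart, skeletal muscle) of each of 6 male mice, 3 wild type (WT) and 3 homozygous for the *Rap1* I312R knockin allele (KI), which was made by CRISPR/Cas9 editing and backcrossed 4 times to C57BL/6N mice. The mutation changes the surface by which RAP1, a protein of the telomere cap, binds its partner TRF2, and it is present in every cell of the animal. Each mouse and tissue was hybridized to its own 1-color Agilent array, which gives 24 arrays. Mice are numbered WT1, WT2, WT3, KI1, KI2 and KI3. Each genotype holds 1 mouse of 5 months (WT1, KI1) and 2 mice of 2 months. Whether the mice had been fed or fasted, and the hour at which tissue was taken, are not given in the sources used here.

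The liver keeps blood glucose steady between meals. Lactate and amino acids enter gluconeogenesis through pyruvate carboxylase (*Pcx*), which makes oxaloacetate in mitochondria, and the cytosolic phosphoenolpyruvate carboxykinase (*Pck1*) turns oxaloacetate into phosphoenolpyruvate. Fructose bisphosphatase (*Fbp1*) acts further along, and the catalytic subunit of glucose 6-phosphatase (*G6pc*) sets glucose free. Liver pyruvate kinase (*Pklr*) runs the opposite way, from phosphoenolpyruvate to pyruvate, and liver glycogen synthase (*Gys2*) stores glucose after a meal. Fasting hormones raise *Pck1* and *G6pc* transcripts and insulin lowers them, while *Pklr* rises with carbohydrate feeding. Some of these enzymes also work outside the liver: *Pck1* and *Pcx* serve glycerol and lipid synthesis in adipocytes, and *Pcx* serves glial cells.

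Each level below is the log2 of a probe's processed signal over the 75th percentile of its own array, so a level of 0 is that percentile and a difference of 1 is a factor of 2. That percentile ranged from 470.7 to 1389 intensity units over the 24 arrays, and 56.5% to 72.7% of the probes on an array were well above background by the scanner software's own call. No probe was saturated (0 on every array). On every array of the labelled tissue, 9 of 9 hepatocyte, 10 of 10 brain, 10 of 10 cardiac and 10 of 10 skeletal muscle markers were well above background. Some arrays of other tissues reached the same counts, so the labels were compared with summed levels, which they matched. Hepatocyte markers summed to at least 11.37 in the livers and at most 6.78 elsewhere. Brain markers summed to at least 8.59 in the brains and at most 7.76 elsewhere (no sum for the KI3 muscle). Cardiac markers summed to at least 11.42 in the hearts and at most 9.87 elsewhere. Skeletal muscle markers summed to at least 12.2 in the muscles and at most 7.73 elsewhere. The RAP1 gene, *Terf2ip*, was detected on all 24 arrays, but its probes cannot read the point mutation and do not check the genotype labels. Within a tissue, p-values measure the spread between mice of the same genotype. In the fit of all 24 arrays, each probe has 1 spread shared by all groups of tissue and genotype.

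Promoter windows of 300 bases, from 250 before to 50 after the transcription start, were read from the RefSeq table of build GRCm38.p6. It holds 7 windows for 5 of the 6 genes, and none was matched for *Gys2*. The windows below are shown because *Pck1* and *G6pc* are hormone-controlled steps of gluconeogenesis, and because *Pklr* has separate starts. Capitals mark the letters of the motifs searched, on either strand. The *Pck1* window is chr2:173152823-173153122 on the plus strand, that of *G6pc* is chr11:101367466-101367765 on the plus strand, and those of *Pklr* are chr3:89135892-89136191 and chr3:89136373-89136672, both on the plus strand.
Pck1: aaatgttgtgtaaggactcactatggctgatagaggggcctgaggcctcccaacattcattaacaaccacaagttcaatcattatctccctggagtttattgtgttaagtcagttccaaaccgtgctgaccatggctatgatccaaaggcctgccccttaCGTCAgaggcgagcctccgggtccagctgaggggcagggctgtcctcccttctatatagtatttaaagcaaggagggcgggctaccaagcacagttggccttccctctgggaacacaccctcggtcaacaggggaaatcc
G6pc: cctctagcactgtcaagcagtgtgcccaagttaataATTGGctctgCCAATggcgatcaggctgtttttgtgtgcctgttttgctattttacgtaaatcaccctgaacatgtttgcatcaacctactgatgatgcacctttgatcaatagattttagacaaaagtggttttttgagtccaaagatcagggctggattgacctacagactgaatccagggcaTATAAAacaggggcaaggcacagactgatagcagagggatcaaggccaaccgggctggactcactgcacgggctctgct
Pklr, first start: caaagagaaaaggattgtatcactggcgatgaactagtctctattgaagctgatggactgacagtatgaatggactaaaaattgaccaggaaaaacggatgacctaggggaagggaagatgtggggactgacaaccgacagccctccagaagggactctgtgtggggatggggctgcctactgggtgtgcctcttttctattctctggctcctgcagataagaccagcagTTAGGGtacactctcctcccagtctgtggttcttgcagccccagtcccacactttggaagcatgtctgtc
Pklr, second start: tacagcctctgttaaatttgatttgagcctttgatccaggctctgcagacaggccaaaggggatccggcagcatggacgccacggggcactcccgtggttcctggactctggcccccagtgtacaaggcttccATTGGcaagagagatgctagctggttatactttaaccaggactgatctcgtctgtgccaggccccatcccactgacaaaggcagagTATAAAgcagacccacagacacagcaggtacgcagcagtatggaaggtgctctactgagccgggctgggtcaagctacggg

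The 12 motifs searched included the cAMP response element TGACGTCA and its core TGACG, the forkhead site GTAAACA, the insulin response core AAAACAA, the HNF4A site CAAAGTCCA, the C/EBP site TTGCNNAA, the E-box CACGTG, the TATA box TATAAA, the CCAAT box CCAAT and the telomere repeat unit TTAGGG. The palindromic glucocorticoid receptor element and the HNF1 element were searched as full palindromes and are given by name only. All motifs were matched by exact letters, where N stands for any letter. TGACGTCA contains TGACG. The *Pck1* window held the cAMP response core at positions -90 to -86 from the start, on the minus strand, and 20.8% of all 32841 windows of the table held that core. A TATA box stood at -29 to -24 in *G6pc* and at -31 to -26 before the second start of *Pklr*, and 13.6% of all windows held those letters. CCAAT was present in 5 of the 7 windows, those of *G6pc*, *Fbp1*, both starts of *Pcx* and the second start of *Pklr*, against 37.4% of all windows. An E-box was present in the first *Pcx* window (7.15% of all windows). TTAGGG, the sequence of the telomere repeat, was found once, in the first *Pklr* window, at -20 to -15, and 10.6% of all windows held it. The full cAMP response element (1.79% of all windows), the forkhead site (3.65%), the insulin response core (9.02%), the HNF4A site (0.475%) and the C/EBP site (10.8%) were found in 0 of the 7 windows. The same held for the glucocorticoid receptor and HNF1 elements (0.00913% of all windows each). A site that differs from the searched letters is missed, so these counts do not show that a window lacks such an element.

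All 6 genes were higher in the liver than in any of the other tissues. In WT mice limma called 6 of 6 higher in the liver than in the brain, where 41.2% of all 40227 probes tested were called higher in the liver. It also called 6 of 6 against the heart (28.5% of probes) and 6 of 6 against the muscle (29.8%). The KI mice gave the same counts, 6 of 6 against the brain (41.8% of probes), the heart (30.4%) and the muscle (30.9%). This fit takes all 24 arrays in 8 groups and adjusts p over all 40227 probes. Each count includes *Pklr*, which was well above background on 0 of 3 WT hearts and 0 of 3 muscles of each genotype. It entered the fit through its liver arrays alone, so its calls against those groups support nothing. Averaged over the 3 other tissues, the WT liver lead was 11.54 log2 units for *Fbp1* (standard error 0.53, limma adjusted p = 3.2e-13), 11.10 for *G6pc* (0.37, adjusted p = 2.7e-15) and 10.63 for *Gys2* (0.78, adjusted p = 3.6e-10). It was 10.00 for *Pck1* (1.04, adjusted p = 6.4e-08) and 2.92 for *Pcx* (0.34, adjusted p = 3.3e-07), and none is given for *Pklr*, which was not measured in WT heart and muscle. Set among all probes tested, the lead of *Pcx* was larger than that of 92.9% of them, and those of the other 4 genes were larger than 99.2% to 99.6%. In bulk tissue, fewer cells of a type and less RNA per cell cannot be told apart.

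**Figure D1:**
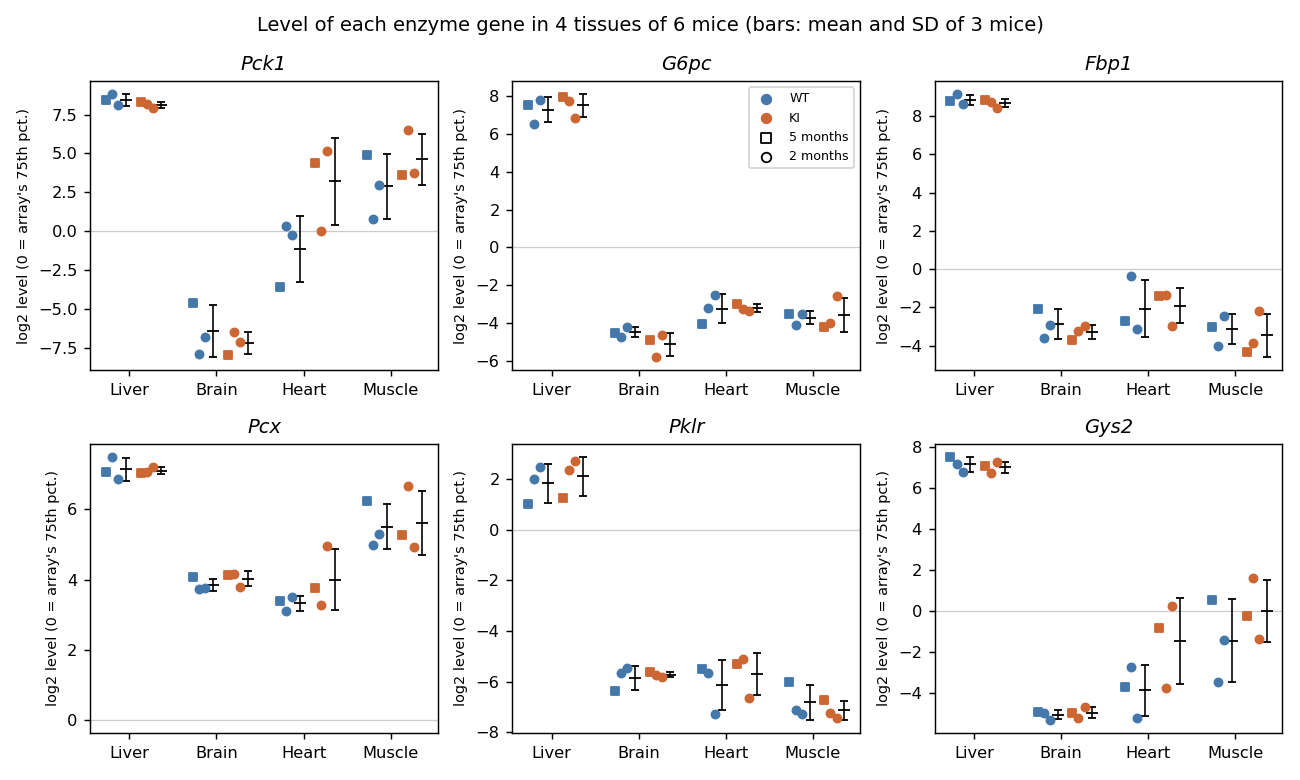
Log2 level of the 6 enzyme genes (vertical axis, 0 is the 75th percentile of the array) in liver, brain, heart and muscle of each mouse (blue WT, orange KI, squares 5 months, circles 2 months), with the mean and SD of 3 mice per genotype as bars and each gene on its own axis. The liver points lie above those of every other tissue for each gene, and *Pck1* and *Gys2* spread widely in heart and muscle.

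Outside the liver the order of the tissues differed by gene. *Pck1* stood at 8.44 ± 0.36 (SD, n = 3) in the WT livers, 2.89 ± 2.08 in the muscles, -1.15 ± 2.12 in the hearts and -6.41 ± 1.67 in the brains. Every neighboring pair in this order passed the test, with 5.56 log2 units between liver and muscle (standard error 1.27, limma adjusted p = 0.0009), 4.03 between muscle and heart (adjusted p = 0.019) and 5.27 between heart and brain (adjusted p = 0.0014), where only 1 of 3 WT brains had *Pck1* well above background. The pair of muscle and heart did not hold in the KI mice, where the difference was 1.44 (adjusted p = 0.43), nor without WT1 (1.80, adjusted p = 0.38) or without WT3 (4.45, adjusted p = 0.068). The KI brains had it well above background in 1 of 3 mice.

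*Gys2* followed the same order, at 7.18 ± 0.36 in the WT livers, -1.43 ± 2.01 in the muscles, -3.87 ± 1.26 in the hearts and -5.05 ± 0.21 in the brains. Liver and muscle differed by 8.61 log2 units (standard error 0.95, limma adjusted p = 2e-07). The neighbors further down did not pass the test, with 2.44 between muscle and heart (adjusted p = 0.056) and 1.18 between heart and brain (adjusted p = 0.30). The muscle and heart pair passed without KI2 (adjusted p = 0.026), KI3 (0.049) or WT2, where the difference was 4.03 (0.013), and with the mean of both probes (2.68, adjusted p = 0.038). Without KI2 or KI3 the WT difference stayed at 2.44, and only the spread shared by all groups and the probes tested changed. The second *Gys2* probe gave 5.44 ± 0.21 in the livers and -3.61 ± 2.02 in the muscles.

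*Pcx* was the gene with the smallest liver lead. It stood at 7.14 ± 0.32 in the WT livers, 5.51 ± 0.64 in the muscles, 3.85 ± 0.18 in the brains and 3.32 ± 0.21 in the hearts. The liver exceeded the muscle by 1.63 log2 units (standard error 0.42, limma adjusted p = 0.0023), or 3.09-fold, and without WT2 by 1.20 (adjusted p = 0.073). Muscle exceeded brain by 1.67 (adjusted p = 0.0017), while brain and heart differed by 0.52 (adjusted p = 0.29).

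*G6pc* and *Fbp1* were each low outside the liver. *G6pc* was at 7.29 ± 0.66 in the WT livers and at -3.24 ± 0.76 in the hearts, -3.72 ± 0.34 in the muscles and -4.48 ± 0.27 in the brains. Heart and muscle differed by 0.47 (standard error 0.46, limma adjusted p = 0.47), and muscle and brain by 0.76 (adjusted p = 0.16). *Fbp1* was at 8.85 ± 0.26 in the livers, -2.07 ± 1.49 in the hearts, -2.87 ± 0.77 in the brains and -3.15 ± 0.79 in the muscles, and the neighbors among the last 3 tissues differed by 0.80 (adjusted p = 0.31) and 0.28 (adjusted p = 0.73). Over all probes, 59.8% were called different between WT brain and heart, 62.6% between brain and muscle and 32.7% between heart and muscle.

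*Pklr* was near or below the detection limit outside the liver. Its WT liver mean was 1.83 ± 0.76, against -5.84 ± 0.48 in the brains, -6.14 ± 0.98 in the hearts and -6.81 ± 0.69 in the muscles. None of the 6 muscles and 0 of the 3 WT hearts had it well above background, and 2 of 3 brains of each genotype did. Where no array of a group measured it, the fold is a bound against the higher of the lowest well-measured signal on each array and the probe's own. By that bound *Pklr* was at least 211-fold higher in WT liver than in WT heart and at least 261-fold higher than in WT muscle. In KI mice it was at least 298-fold higher in liver than in muscle. The limma adjusted p for WT heart (1.1e-10) and WT muscle (2.7e-11) belong to the differences before bounding. Those differences use signals that were not well above background. Against the WT brain, where 2 of 3 arrays measured it, the difference was 7.67 log2 units (standard error 0.52, adjusted p = 1.2e-10).

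The isozymes that serve other tissues mostly had the opposite pattern. The muscle-type pyruvate kinase *Pkm* was lower in WT liver than in WT muscle by 7.31 log2 units (standard error 0.24, limma adjusted p = 3.1e-15), and the muscle-type glycogen synthase *Gys1* by 7.20 (0.27, adjusted p = 1.6e-14). *Fbp2*, the muscle fructose bisphosphatase, was lower in liver than in muscle by 8.13 (0.48, adjusted p = 1.7e-11), and *G6pc3*, the widely expressed glucose 6-phosphatase, by 3.56 (0.22, adjusted p = 3.7e-11). Each of these 4 genes was also lower in liver than in heart, by 2.95 to 7.82 log2 units. *Pck2*, the mitochondrial phosphoenolpyruvate carboxykinase, was lower in liver than in heart by 0.60 (0.21, adjusted p = 0.019) and differed from muscle by 0.20 (adjusted p = 0.41). *G6pc2*, known from pancreatic islets, was above background on all 3 WT and 2 of 3 KI livers and on 0 arrays of the other tissues. Between genotypes, 0 of these 6 isozymes passed the test in any tissue. In the heart all KI mice lay below all WT mice for *Fbp2* (-0.54, standard error 0.28) and for the brighter *Gys1* probe (-0.70, 0.33), while the other *Gys1* probe gave 0.20 (0.46), and 14.7% of all heart probes had genotypes that did not overlap.

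The genotype comparison asks whether RAP1 that cannot bind TRF2 changes these enzymes. In the liver, 0 of the 6 genes were called different between KI and WT mice, which does not show that their levels are equal. At an adjusted p of 0.05, limma found 0 of 35226 probes there (0%), with 2.13% at an unadjusted p under 0.05, and all KI mice lay on the same side of all WT mice at 5.85% of probes. None of the 6 genes passed either limit, and their groups overlapped in 6 of 6 cases. The differences ran from -0.31 to 0.27 log2 units with a median of -0.09, against -0.01 over all probes tested.

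*Pck1* levels in the livers of WT1, WT2 and WT3 were 8.42, 8.81 and 8.09, and those in KI1, KI2 and KI3 were 8.29, 8.20 and 7.91. WT2 was highest and KI3 lowest, and the other 4 mice overlapped. The difference, KI minus WT, was -0.31 (standard error 0.25, 95% interval -0.89 to 0.27, limma adjusted p = 1), and the exact permutation test over the 10 splits of 6 mice gave p = 0.3, where the smallest it can give is 0.1.

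*G6pc* was 7.51, 6.55 and 7.81 in the WT livers and 7.96, 7.74 and 6.84 in the KI livers. The lowest livers, WT2 and KI3, came from different genotypes. The difference was 0.23 (standard error 0.42, 95% interval -0.76 to 1.21, limma adjusted p = 1), which leaves a range from 0.59-fold to 2.32-fold.

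*Fbp1* was 8.76, 9.14 and 8.65 in the WT livers and 8.86, 8.73 and 8.44 in the KI livers, again with WT2 highest and KI3 lowest. *Pcx* was 7.07, 7.50 and 6.87 in the WT livers and 7.04, 7.07 and 7.21 in the KI livers. The KI livers lay within the WT range for *Pcx*. The differences were -0.17 (95% interval -0.70 to 0.36) for *Fbp1* and -0.03 (-0.56 to 0.50) for *Pcx*, both with a limma adjusted p of 1. Of these, the sign for *Fbp1* turned with quantile normalization (0.12), and that for *Pcx* with quantile normalization (0.12) and normexp background correction (0.02).

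*Gys2* was 7.53, 7.20 and 6.81 in the WT livers and 7.10, 6.73 and 7.27 in the KI livers, and the difference was -0.15 (95% interval -0.76 to 0.47, limma adjusted p = 1). The second *Gys2* probe gave -0.04 (standard error 0.26). *Pklr* was 1.00, 2.01 and 2.49 in the WT livers and 1.24, 2.36 and 2.71 in the KI livers. The lowest liver of each genotype was that of its 5-month mouse. The genotype difference of *Pklr* was 0.27 (standard error 0.50, 95% interval -0.90 to 1.44, limma adjusted p = 1).

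*Pklr* and *G6pc* varied most between livers, whatever the genotype. *Pklr* spanned 1.71 log2 units over the 6 livers, or 3.27-fold, and *G6pc* spanned 1.41, or 2.66-fold. The other 4 genes spanned 0.63 to 0.90. *Pklr* averaged 1.12 in the pair of 5-month mice, both below the range of 2.01 to 2.71 in the 4 younger mice. With 2 older mice no test of age was made, and the share of all probes that set these 2 livers apart was not computed.

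The 15 pairs of genes were correlated over the 6 livers, with exact permutation p over all pairings. *Pck1* and *Fbp1* had Pearson r = 0.95 (exact p = 0.0069, adjusted over the 15 pairs 0.083) and Spearman rho = 0.94 (exact p = 0.017, adjusted 0.25). *G6pc* and *Pcx* had r = -0.89 (exact p = 0.011, adjusted 0.083) and rho = -0.89 (exact p = 0.033, adjusted 0.25). No pair passed after adjustment on the levels as measured. Without the 2 livers farthest from the median of the first gene, r fell to 0.64 for *Pck1* and *Fbp1* and was -0.28 for *G6pc* and *Pcx* over the 4 livers left. For deviations from the genotype mean, r over the 6 livers was 0.96 and -0.89, each with an adjusted permutation p of 0.042. The adjusted permutation p of rho there was 0.25 and 0.44. These p are not exact, because deviations from a genotype mean cannot be exchanged freely between genotypes, and no conclusion is drawn from them. Without 2 livers these r were 0.98 and -0.75.

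The relation of *Pck1* and *Fbp1* turned over with the scaling. After quantile normalization their r over the same livers was -0.95 (exact p = 0.0028, adjusted 0.042), and that of *G6pc* and *Pcx* was -0.63 (exact p = 0.19). Both *Pck1* and *Fbp1* are among the brightest probes of the liver, with ranks from 122 to 191 and from 23 to 66 of all probes. Their range over the livers was 0.90 and 0.70 log2 units by the 75th percentile and 0.26 and 0.31 after quantile normalization. The WT2 array, highest for both genes, had the lowest 75th percentile of the livers (573.1, against 952.3 to 1389 on the others) and was also highest for albumin (*Alb*), at 9.85 against 8.74 to 9.30, and KI3 was lowest for all 3. Quantile normalization, which gives each rank the same value on every array, put *Alb* at 9.39 in all 6 livers.

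**Figure D2:**
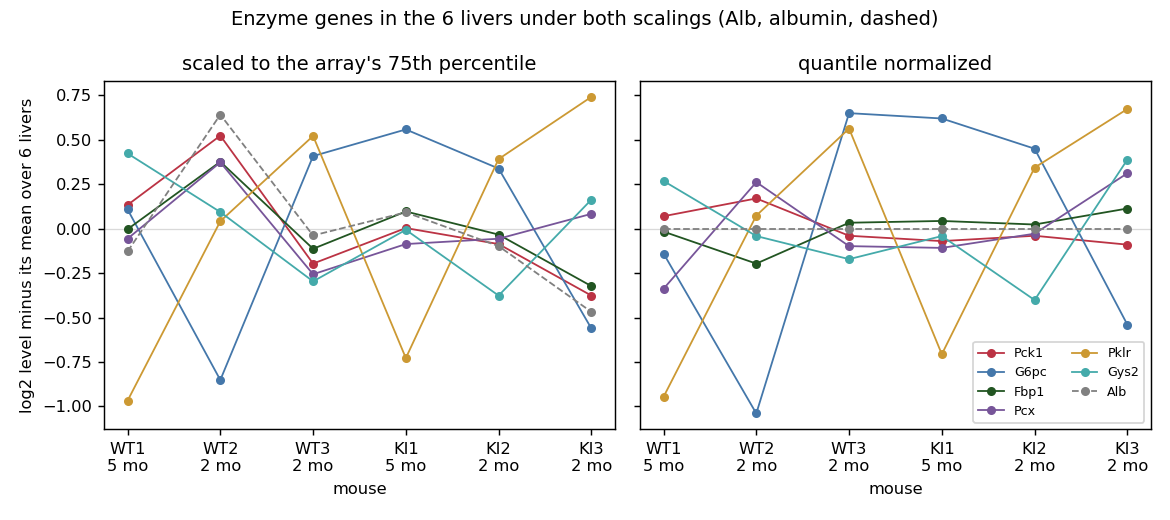
Log2 level of each enzyme gene and of *Alb* (dashed) in the 6 livers, minus its mean over them, after scaling to the 75th percentile of the array (left) and after quantile normalization (right). On the left *Pck1*, *Fbp1* and *Alb* share a peak in WT2 and a low in KI3, on the right their ranges shrink to 0.26, 0.31 and 0, and *Pklr* is lowest in the 5-month mice WT1 and KI1 in both panels.

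Of the further steps of gluconeogenesis and its entry, 0 of 24 tested genes passed the adjusted threshold and 0 were under 0.05 unadjusted, with a median difference of -0.08. The brightest was *Gapdh*, at 8.82 ± 0.32 in WT and 8.59 ± 0.23 in KI livers. Among genes of glucose uptake and glycolysis, which share 1 gene with that list, 0 of 9 passed (median -0.07), and ketohexokinase (*Khk*) differed by -0.07. In glycogen metabolism 0 of 22 passed (median -0.04), with -0.17 for liver glycogen phosphorylase (*Pygl*) and -0.07 for phosphoglucomutase (*Pgm1*). The only gene of these lists with an unadjusted p under 0.05 in the liver was *Nhlrc1* (0.61, standard error 0.20), a ubiquitin ligase of glycogen quality control, named after its value was seen.

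Of the regulators of these enzymes, 0 of 28 passed the adjusted threshold in the liver and 0 had an unadjusted p under 0.05 (median -0.04). All KI livers lay below all WT livers for 1 of the 28, while genotypes did not overlap at 5.85% of all liver probes, in either direction. The carbohydrate-responsive factor *Mlxipl*, named after its value was seen, was at 6.42 ± 0.25 in WT and 5.97 ± 0.08 in KI livers (-0.45, standard error 0.21). Of the brightest, the nuclear receptor *Hnf4a* differed by -0.25 (standard error 0.25) and the glucagon receptor *Gcgr* by -0.12 (0.22). Genes that respond to fasting and feeding were read as a gauge of nutritional state. Of the fasting genes 0 of 12 passed, with a median of 0.16, and tyrosine aminotransferase (*Tat*) differed by -0.19 (standard error 0.22). Of the feeding genes 0 of 10 passed, with a median of 0.04, and the desaturase *Scd1* differed by -0.12 (0.30) and *Thrsp* by 0.04 (0.24). The summed level of the fasting genes was 9.36 to 9.69 in WT and 9.73 to 9.76 in KI livers, so that every KI liver lay above every WT liver. That of the feeding genes was 9.12 to 9.27 and 8.97 to 9.28. The widest fasting difference was that of *Igfbp1* (1.12, standard error 0.64), an insulin-repressed secreted protein named after its value was seen. Markers of periportal hepatocytes, where gluconeogenesis is concentrated, summed to 10.46 to 10.95 in WT and 10.31 to 10.53 in KI livers, and those of pericentral hepatocytes to 9.39 to 9.94 and 9.32 to 9.63. Both of these zonation lists, of 10 markers each, overlapped between genotypes. The part of nutritional state and zonation in the liver values was not tested.

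In the heart, the 5 genes tested had higher means in KI than in WT mice, by 0.05 to 4.34 log2 units, and 0 passed the test. The median difference over all probes was -0.02, and the share of probes with higher KI means was not computed. Across all 34837 probes limma found 0 (0%) past the adjusted threshold and 7.51% at an unadjusted p under 0.05, and the genotypes did not overlap at 14.7% of probes. Of the 5 genes tested, 1 had an unadjusted p under 0.05, and none had groups apart. That gene was *Pck1*. Its level was -3.57, 0.37 and -0.24 in the WT hearts and 4.40, 0.03 and 5.17 in the KI hearts. KI1 and KI3 were far above the other 4 mice, while KI2 lay inside the WT range. The difference was 4.34 log2 units (standard error 1.55, 95% interval 0.67 to 8.02, limma p = 0.027, adjusted p = 0.65), and the exact permutation test gave p = 0.2. Within the slide that held WT1, WT2, KI1 and KI2 it was 3.81, and between WT3 and KI3 on the other slide 5.41.

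*Gys2* had the same mice at the top of the hearts, with -3.68, -2.71 and -5.22 in WT and -0.82, -3.77 and 0.24 in KI mice. KI1 and KI3 exceeded all WT hearts and KI2 lay among them. The difference was 2.42 (standard error 1.09, limma adjusted p = 0.65), and the second probe gave 2.77 (1.19). Within the slide of 4 mice it was 0.90, and between WT3 and KI3 on the other slide 5.46. *Pcx* was 3.38, 3.09 and 3.50 in the WT hearts and 3.77, 3.27 and 4.95 in the KI hearts, a difference of 0.67 (0.43, adjusted p = 0.69) in which KI3 stood apart. The remaining genes were close between genotypes in the heart. *G6pc* differed by 0.05 (0.39), with the sign turned by quantile normalization (-0.13), and *Fbp1* by 0.15 (0.79). *Pklr* was not tested there.

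Adipocyte markers moved with *Pck1* and *Gys2* across the hearts. The summed level of 10 markers was 8.14 to 8.27 in the WT hearts and 8.79, 8.38 and 9.56 in KI1, KI2 and KI3, so that KI1 and KI3 were again highest. For 8 of the 10 markers KI1 and KI3 were the highest hearts. The share of all heart probes with this pair highest was not computed. Adiponectin (*Adipoq*), named with *Plin1* and *Cidec* after their values were seen, was -4.23, 0.72 and -0.15 in WT and 4.05, 0.42 and 4.86 in KI hearts, and it shares with *Pck1* its lowest heart, WT1. The brightest markers varied less, with a range of 0.54 for *Fabp4* and 0.50 for *Plin4*, 2 genes that capillary and muscle cells are also known to express, and 8.26 for *Cfd*. The hormone leptin (*Lep*) was well above background in 2 of 6 hearts. None of the 9 adipocyte markers tested passed the adjusted threshold, 5 had an unadjusted p under 0.05 (7.51% of all probes), and their median difference was 3.32, against -0.02 over all probes. Of 6 markers of brown adipocytes, *Cox8b*, which heart muscle is also known to express, was at 8.12 to 8.95 in every heart and carried the summed level (8.46 to 9.12 in WT, 8.68 to 8.92 in KI hearts). The thermogenic protein *Ucp1*, named with *Cox8b* after the values were seen, was -6.97, -6.40 and -1.03 in WT and 4.96, -7.72 and 5.93 in KI hearts. The mean level of the 6 markers was highest in KI1 (3.45) and KI3 (3.97), against 0.28 to 1.67 in the other hearts. With KI1 and KI3 left out together, a setting added after the data were seen, the difference was 1.18 for *Pck1*, 0.10 for *Gys2* and -0.05 for *Pcx*, between 3 WT hearts and the single KI2 heart, which is assumed to vary like them. The hearts left out are also the highest for *Pck1* and *Gys2* themselves, so a smaller difference follows from the choice and supports nothing. The part of adipose tissue in the heart values was not tested.

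In the other lists of glucose metabolism, 0 genes passed the adjusted threshold in the heart, brain or muscle. Among the feeding genes in the heart, which adipocytes are also known to express, 3 of 10 had higher levels and 1 a lower level in KI mice at an unadjusted p under 0.05, against 7.51% of all probes in either direction, with a median difference of 1.29. *Scd1* was -0.16, 1.08 and 0.55 in the WT hearts and 5.00, 0.67 and 5.74 in the KI hearts, again highest in KI1 and KI3.

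**Figure D3:**
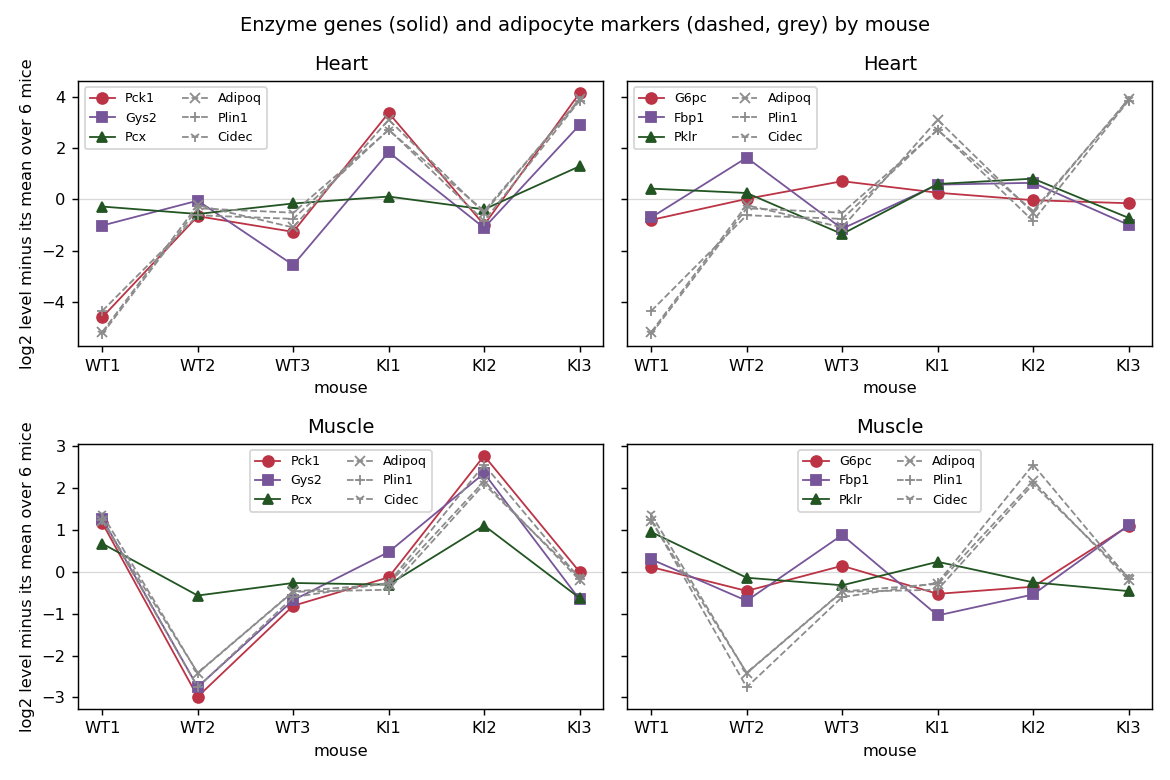
Log2 level minus its mean over the 6 mice for enzyme genes (solid) and for the adipocyte markers *Adipoq*, *Plin1* and *Cidec* (dashed, gray) in heart (top) and muscle (bottom). On the left, *Pck1* and *Gys2* peak with the markers in KI1 and KI3 in the heart and in WT1 and KI2 in the muscle, and *Pcx* does so by a smaller step; on the right, *G6pc* and *Fbp1* have other peaks, and *Pklr* was well above background in 0 of 6 muscles and 2 of 6 hearts.

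The muscle showed the same trio of genes moving together, but in mice of both genotypes. Limma called 0 of 32357 probes there (0%), 2.47% at an unadjusted p under 0.05, and the genotypes did not overlap at 6.45% of probes. Of the 5 genes tested, 0 passed either limit. *Pck1* was 4.93, 0.78 and 2.95 in the WT muscles and 3.63, 6.53 and 3.76 in the KI muscles. *Gys2* was 0.56, -3.46 and -1.39 in WT and -0.24, 1.64 and -1.37 in KI muscles, and *Pcx* was 6.24, 5.00 and 5.30 in WT and 5.26, 6.67 and 4.94 in KI muscles. KI2 and WT1 were the highest muscles for all 3 genes, and WT2 was lowest for *Pck1* and *Gys2*. The genotype differences were 1.75 (standard error 1.16, limma adjusted p = 0.94), 1.44 (1.11, adjusted p = 0.94) and 0.11 (0.52, adjusted p = 0.98).

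The summed level of the adipocyte markers in the muscles was 10.19, 8.0 and 9.36 in WT1, WT2 and WT3 and 9.23, 10.66 and 9.26 in KI1, KI2 and KI3. KI2 and WT1 were highest and WT2 lowest, as for *Pck1* and *Gys2*. WT1 and KI2 were the highest muscles for 9 of the 10 markers. The share of all muscle probes with this pair highest was not computed. *Adipoq* spanned 4.57 log2 units, *Pck1* 5.75 and *Gys2* 5.10. Without WT1 and KI2, a setting added after the data were seen, the differences were 1.83 for *Pck1* and 1.62 for *Gys2*, and neither passed the adjusted threshold. *G6pc* and *Fbp1* had another order, with KI3 highest and KI1 lowest, and differed by 0.14 (0.45) and -0.32 (0.62). Hepatocyte markers moved with *Fbp1*: the summed level of 9 markers was 2.98, 1.74 and 3.29 in the WT muscles and 0.51, 0.51 and 3.68 in the KI muscles, highest in KI3 as *Fbp1* was. In the hearts WT2 was highest both for that sum (5.63, against 3.03 to 4.77) and for *Fbp1*. The lowest hearts differed, WT1 for the sum (3.03) and WT3 for *Fbp1* (-3.14). The part of liver RNA in these values was not tested. The part of adipose tissue in the muscle values was not tested.

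In the brain *G6pc*, *Fbp1*, *Pcx* and the brighter *Gys2* probe were well above background in all 6 mice, and only *Pcx* had levels above 0. The second *Gys2* probe was well above background in 0 of 3 WT and 0 of 3 KI brains and was not tested. Limma called 0 of 37810 probes (0%), 2.62% at an unadjusted p under 0.05, and 7.74% had genotypes that did not overlap. Of the 5 genes tested, 0 passed either limit. *Pcx* was 4.06, 3.73 and 3.75 in the WT brains and 4.14, 4.15 and 3.78 in the KI brains, which overlap, with a difference of 0.18 (standard error 0.20, 95% interval -0.30 to 0.65, limma adjusted p = 1). The largest tested difference was that of *G6pc*, at -4.54, -4.71 and -4.18 in WT and -4.89, -5.79 and -4.64 in KI brains. KI2 was lowest, and KI3 lay within the WT range. It came to -0.63 (0.34, adjusted p = 1). Adipocyte markers summed to at most 0.13 in WT and 0.64 in KI brains. In the brain the slide coincides with age: WT1 and KI1 were on the same slide and the other 4 mice on another. Within them the *Fbp1* difference was -1.62 and 0.16, and that of *Pklr* was 0.77 and -0.21. The WT1 brain, highest for *Fbp1*, had 9 of 9 hepatocyte markers well above background, against 5 to 7 in the other brains, and their mean level there was -1.42, against -4.91 to -3.91, though their summed level (5.99) lay within the range of the others (4.45 to 6.78). The part of liver RNA in this value was not tested.

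**Figure D4:**
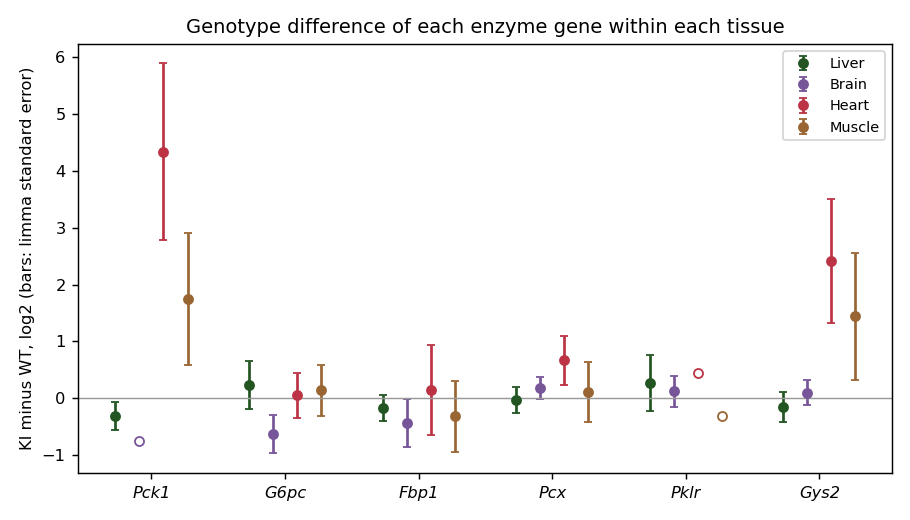
Difference between KI and WT means in log2 units (vertical axis) for the 6 enzyme genes in each tissue, with the limma standard error as bars and open points for genes not tested in that tissue. The liver differences lie between -0.31 and 0.27, and the 2 points that stand farthest from 0 are *Pck1* (4.34) and *Gys2* (2.42) in the heart.

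Whether the genotype difference itself differed between tissues was tested with an F test of the interaction over all 24 arrays. At an adjusted p of 0.05 it found 0 of the 6 genes and 0 of 40227 probes (0%), and 3.07% of probes had an unadjusted p under 0.05. *Pck1* had an unadjusted p of 0.04 (limma adjusted p = 1), and the other 5 genes had 0.22 to 0.93. The liver difference minus the mean difference in the other tissues was -2.09 for *Pck1* (standard error 1.46) and -1.47 for *Gys2* (1.10).

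Some genes had patterns over the 24 arrays very like those of the enzymes. Among 17892 other named genes, the highest Pearson r with *Pck1* were those of haptoglobin (*Hp*, 0.989), the cytochrome *Cyp2e1* (0.989) and the acid phosphatase *Acp5* (0.975). For *Gys2* they were *Orm2* (0.989), *Orm1* (0.988), both acute-phase proteins, and *Vnn3* (0.988). *G6pc* was closest to *Cpb2* (0.997), *Apon* (0.994) and *Cyp2d9* (0.994), and *Fbp1* to *C8b* (0.997), *Apof* (0.996) and *C4bp* (0.996), genes of plasma proteins except *Cyp2d9*. *Pklr* was closest to *Prss8*, *Ugt3a2* and *Cyp2c67* (0.990 each). *Pcx* had looser matches, *Mtarc2* (0.946), *1110038B12Rik* (0.942) and *Zyg11a* (0.940). Among the 6 enzymes themselves r ran from 0.59, for *Pck1* and *Pklr*, to 0.98, for *Fbp1* with *G6pc* and with *Pklr*. These values describe arrays of 4 tissues that share mice and slides.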

How the data were processed

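Total RNA of each tissue was labeled with Cy3 and hybridized to Agilent mouse arrays. Scanner files deposited by the authors hold intensity values processed by Feature Extraction 12.0.3.1, which subtracted the background, and arrays were not normalized to each other. A series table, also deposited, gives each spot a score, the z-score of its log10 signal among the spots of that array (recomputed scores differed by at most 0.005 on all 24 arrays). For the array analysis the methods cite another publication.

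The 3671 control spots and flagged spots were left out, and spots of a probe were averaged. Levels are log2 signals minus the array's 75th percentile. Accessions named 28331 of 55681 probes through a RefSeq table (GRCm38.p6), and 27350 have no name here. The file headers give an older design build, so gene coordinates of that table are not printed. A gene with several probes is represented by the brightest. Within a tissue, a probe was compared if 3 or more of 6 arrays called it well above background, using limma 3.58.1 in R 4.3.3 (lmFit, eBayes, two-sided, Benjamini-Hochberg over all tested probes). Tissues and the interaction were tested in a fit of all 24 arrays over probes well above background on all 3 arrays of a group. The procedures were tested on simulated data. The alternatives were quantile normalization, normexp (offset 50) on the median foreground, since the files hold no mean, the authors' table, other filters, the mean over probes, age, slide or mouse as a block, a joint fit, trend and robust eBayes, and each mouse left out. The 6 genes, the lists of pathway and marker genes and the motifs were chosen with earlier results of these data known. Named genes are all 6 enzymes and their isozymes, the 2 brightest genes of other pathway lists, at most 3 of a marker list, and the 3 genes most like each enzyme. Some of the genes this rule names are not reported here. Arrays give no counts, and the number of arrays limits the precision. The same 6 mice gave all 4 tissues, which pairs the tissues but not the genotypes, and with the mouse as a replicate block the consensus correlation was 0.028. Female arrays and other assays of the study were not analysed here, nor were proteins. Motifs were searched with Python 3.11.15, pandas 2.3.3 and plots drawn with matplotlib 3.10.9.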

Additional observations from a re-analysis of the deposited data

How the results depend on the processing

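The counts of enzymes called stayed at 0 between genotypes in each tissue, at 0 for the interaction and at 6 for the liver against brain and heart under every alternative run. Against the muscle it was 6 except without WT2, where it was 5, since *Pcx* missed the threshold. The counts against heart and muscle include *Pklr*, which was not measured in those WT tissues. With the mouse as a replicate block the counts were again 6 and 0, and the block changed no call on an enzyme. The count of correlated pairs in the livers went from 0 to 2 for deviations from the genotype mean and to 1 after quantile normalization, where r of *Pck1* and *Fbp1* was -0.95. The count of 2 rests on a permutation p that is not exact. None of the differences whose sign turned had passed the test. After quantile normalization the genotype difference was 0.12 for *Fbp1* and 0.12 for *Pcx* in the liver and -0.13 for *G6pc* in the heart, and *Fbp1* differed by 0 between brain and muscle. After normexp correction it was 0.02 for *Pcx* in the liver, -0.07 for *Gys2* in the brain and 0 for *G6pc* in the heart, brain minus heart and heart minus muscle were -0.43 and -0.32 for *Pklr*, and brain minus muscle was -0.12 for *Fbp1*. The mean over both probes gave -0.28 for *Gys2* in the brain, the authors' table -0.03 for the liver effect of *Fbp1* against the other tissues, and the KI mice -0.04 for *Pklr* between brain and heart. Without KI1 and KI3 in the heart, *G6pc* differed by -0.01 and *Pcx* by -0.05, and without WT1 and KI2 in the muscle *Pcx* by -0.06. Leaving out 1 mouse at a time, the liver difference ran from -0.14 to 0.56 for *G6pc*, -0.17 to 0.14 for *Pcx*, -0.15 to 0.70 for *Pklr* and -0.33 to 0.03 for *Gys2*. In the brain it ran from -0.15 to 0.30 for *Pklr* and -0.04 to 0.23 for *Gys2*, and in the heart from -0.34 to 0.42 for *G6pc* and -0.38 to 1.00 for *Fbp1*. In the muscle it ran from -0.37 to 0.43 for *G6pc*, -0.96 to 0.12 for *Fbp1* and -0.42 to 0.47 for *Pcx*. Between WT brain and heart *Fbp1* ran from -1.51 to 0.43 and *Pklr* from -0.45 to 0.89, and between brain and muscle *Fbp1* from -0.05 to 0.66. The liver effect against the other tissues ran from -0.20 to 0.23 for *Fbp1* and -0.38 to 0.76 for *Pklr*. The lead of muscle over brain for *Pcx* missed the threshold after quantile normalization (-0.91, limma adjusted p = 0.064), while that of brain over heart passed (1.06, adjusted p = 0.033). In KI mice heart exceeded brain for *Gys2* (-3.50, adjusted p = 0.0039) and muscle exceeded brain for *G6pc* (-1.53, adjusted p = 0.0074), pairs that missed it in WT mice. The latter pair also passed after normexp correction (-0.84, adjusted p = 0.027). Over all probes the median of liver minus brain was 0.36 by the 75th percentile and 0.20 after quantile normalization, and that of brain minus muscle -0.29 and -0.20 (-0.60 after normexp correction). The cause of these changes was not tested.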
